A study of Mus musculus with 6 samples.

Results

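The transcripts of 8 S100 genes were compared between wild type (WT) macrophages and macrophages without progranulin (PGRN KO), a growth factor-like glycoprotein that cells secrete and that Grn encodes. The members were the rows of the gene table whose symbol was S100a1, S100a4, S100a6, S100a8, S100a9, S100a10, S100a11 or S100a13, which made 8 of the 54532 genes listed, and they were taken by name and not by their values. Per the labels, all cells were C57BL/6J macrophages recruited to the peritoneal cavity, plated at 2000000 cells per well, kept overnight and then challenged with Candida albicans, a fungal pathogen, over 6 hours at a ratio of 1 to 1. The WT group held replicates 1, 2 and 3 and the PGRN KO group held replicates 4, 5 and 6. The labels call the second genotype a progranulin knockout and limit it to no cell type. The methods name separate suppliers for the WT and the PGRN KO mice, so that genotype and source of the animals cannot be told apart. They also describe macrophages grown from bone marrow and another ratio of fungus to cells, and the labels were followed here. By the labels every library came from challenged cells, and unchallenged cells were not analysed here. The titles of the WT samples also hold the word control, which those of the PGRN KO samples do not, and the titles do not explain it. Nothing in the labels says that the libraries of a group came from separate animals or cultures, so p-values measure only the spread between these libraries, which may be technical.

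S100 proteins are small proteins that bind calcium through EF-hand motifs and mostly work as pairs. Inside the cell they bind target proteins such as annexins, cytoskeletal proteins and transcription factors when calcium rises, and S100a10 is the exception that stays in its active form without calcium. Several are also released and then act as danger signals on receptors such as TLR4 and RAGE. S100a8 and S100a9 together form calprotectin, which neutrophils and young monocytes store in large amounts and which withholds zinc and manganese from microbes, Candida albicans among them. In the mouse genome most S100 genes lie side by side on chromosome 3.

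Depth was similar in the 6 libraries, with 15996786 to 17551619 counted fragments each. Values are FPKM, the fragments of a gene scaled to the length of its gene model and to the size of the library, and fold changes are on the log2(FPKM + 1) scale, which understates the change of genes at low levels. Genes with a mean of at least 1 FPKM, 8882 in all, were tested with limma, and a gene was called at a Benjamini-Hochberg adjusted p under 0.05. Grn was at 323, 337 and 325 FPKM in WT against 0.0166, 0 and 0.0167 FPKM in PGRN KO, which gave a fitted log2 difference of -8.35 (limma adjusted p = 1.17e-08), with 56466 fragments in WT against 2 in PGRN KO. PGRN KO replicate 6 stood apart from replicates 4 and 5 by gene length: the 821 tested genes with models of 511 to 1367 bases, the range of the S100 genes, lay a median of 0.44 higher on the log2 scale in replicate 6 than in the mean of replicates 4 and 5, whereas the median over all tested genes was 0.045. S100 results are therefore given with and without that library, and after a loess correction of each library for gene length. The macrophage markers of the label were present, with Adgre1, which encodes F4/80, at 178 to 195 FPKM in WT against 162 to 189 FPKM in PGRN KO. Of 8 markers of large resident peritoneal macrophages, the transcription factor Gata6 was at 3.78 to 4.26 FPKM in WT against 3.84 to 5.07 FPKM in PGRN KO. The means of WT and PGRN KO were 14.2 and 12.7 FPKM for Prg4 and 12.8 and 18.5 FPKM for Cd93, neither called. Icam2 was called higher, at 3.10 and 5.10 FPKM (limma adjusted p = 0.00914). Timd4, Alox15, Selp and Tgfb2 did not exceed 0.204 FPKM in any library. All but Gata6 were named after their values were seen.

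S100a8 and S100a4 fell and S100a1 rose in PGRN KO, whereas S100a6, S100a10, S100a11 and S100a13 did not pass the test. S100a9 was below the limit for testing. Thus 1 of the 7 tested S100 genes was called higher, beside 10.4% of all tested genes, and 2 of 7 were called lower, beside 13.8% of all tested genes. The median log2 fold change of the 7 genes was 0.034, against -0.031 for all tested genes. The levels of WT and PGRN KO did not overlap for S100a1, S100a4 and S100a8, which is 3 of 7, beside 48.8% of all tested genes. In bulk RNA, fewer cells of a type and less RNA per cell cannot be told apart. Scaling moved the balance of calls over all genes: on a TPM scale, on which every library has the same sum, 10.3% of genes were called higher and 6.68% lower, and with voom on recovered fragments 14.2% and 8.51%. The calls of S100a1, S100a4 and S100a8 held under both.

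**Figure D1:**
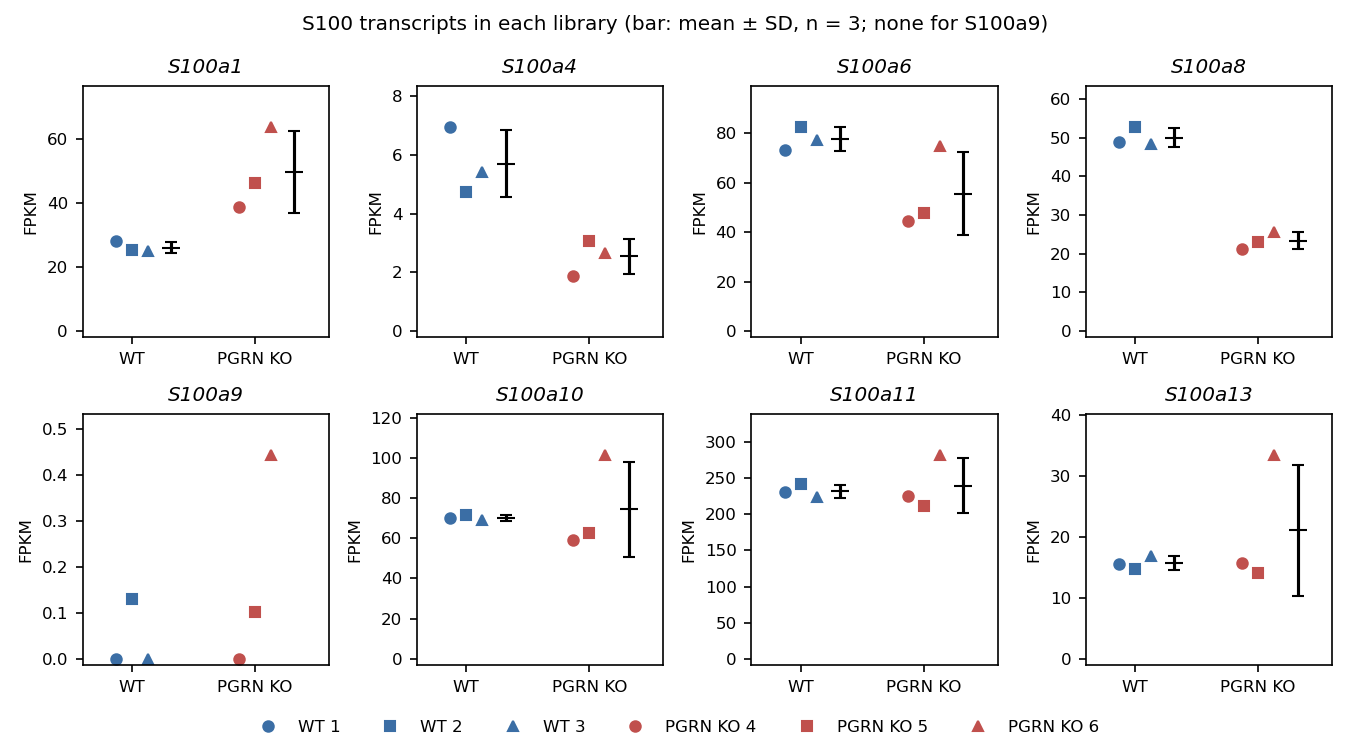
FPKM of each S100 gene (vertical axis, a scale of its own in each panel) in the 3 WT and 3 PGRN KO libraries (points, 1 shape per library), with the mean ± SD of each group (bars, n = 3) except for S100a9. S100a8 sits at 48.3 to 52.8 FPKM in WT against 21.2 to 25.6 FPKM in PGRN KO, and PGRN KO replicate 6 (red triangles) is the highest PGRN KO library in every panel except that of S100a4.

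All 8 genes lie on chromosome 3 (GRCm38) in 2 groups. The first spans 184.69 kb from S100a1 to S100a9 and holds S100a1 (90511034 to 90514392, minus strand), S100a13 (90514435 to 90524581, plus strand), S100a4 (90603771 to 90606045, plus strand), S100a6 (90612882 to 90624181, plus strand), S100a8 (90668978 to 90670035, plus strand) and S100a9 (90692632 to 90695721, minus strand). The second lies 2824766 bases away and spans 44.156 kb, with S100a11 (93520488 to 93526287, plus strand) and S100a10 (93555080 to 93564643, plus strand). S100a1 and S100a13 face away from each other with 42 bases between them, and 22596 bases separate S100a8 from S100a9. The principal transcript has 3 exons in every member but S100a13, where it has 4. Close neighbours did not give the same result: S100a1 rose while S100a13, 42 bases away, did not pass the test, and S100a8 was measured in all libraries while S100a9 was almost absent.

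In WT macrophages the order of the levels, in FPKM and thus per length, ran from S100a11 through S100a6, S100a10, S100a8, S100a1, S100a13 and S100a4 to S100a9, and no neighbours in that order overlapped between libraries. S100a11 had a mean of 232 FPKM and S100a4 a mean of 5.71 FPKM. In PGRN KO the order was S100a11, S100a10, S100a6, S100a1, S100a8, S100a13, S100a4 and S100a9. There S100a10 and S100a6 overlapped, as did S100a6 and S100a1, and as did S100a8 and S100a13. S100a1 stood below S100a8 in every WT library and above it in every PGRN KO library. These levels depend on the length used, because the deposited gene model joins the exons of all transcripts and is 2.95 times as long as the principal transcript for S100a6, 2.54 times for S100a10 and 1.43 times for S100a8. Scaled to the principal transcript, mean WT levels were 232 for S100a11, 229 for S100a6, 178 for S100a10, 71.4 for S100a8 and 26.7 for S100a1. On that scale the levels of S100a11 and S100a6 overlapped in WT, from 224 to 242 and from 215 to 243. The summed FPKM of the 8 genes was 473, 493 and 466 in WT and 406, 408 and 585 in PGRN KO. S100a8 made up 10.3%, 10.7% and 10.4% of that sum in WT and 5.23%, 5.65% and 4.37% in PGRN KO.

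S100a8, the calprotectin subunit also known as MRP8 or calgranulin A, had the lowest adjusted p of the 7 tested members. It was at 48.8, 52.8 and 48.3 FPKM in WT against 21.2, 23.1 and 25.6 FPKM in PGRN KO, in the order of the replicate numbers. Every PGRN KO library lay below every WT library, and replicate 6 lay near the other 2. The mean of 23.3 ± 2.20 FPKM in PGRN KO was 46.6% of the WT mean of 49.98 ± 2.46 FPKM (SD, n = 3 each). The fitted log2 fold change was -1.07 ± 0.10 (SE, 95% confidence interval -1.31 to -0.84, limma adjusted p = 0.00142). It was -1.14 without replicate 6 (limma adjusted p = 0.000381) and -1.13 after length correction (limma adjusted p = 0.000353). The values rested on 567, 542 and 605 fragments in WT and 255, 303 and 307 in PGRN KO, and no exon base of S100a8 is shared with another gene in the annotation.

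S100a9, the partner of S100a8 in calprotectin, was almost absent in both genotypes. It was listed at 0, 0.130 and 0 FPKM in WT against 0, 0.101 and 0.443 FPKM in PGRN KO, that is, 0, 1 and 0 fragments in WT and 0, 1 and 4 in PGRN KO. A count of 0 allows up to 3 fragments, or 0.304 to 0.389 FPKM in these libraries, so only PGRN KO replicate 6 lay above that limit and no fold change is given. S100a9 made up 1 of 1715 fragments of the pair in WT (0.0583%, exact Clopper-Pearson 95% interval 0.00148% to 0.324%) and 5 of 870 in PGRN KO (0.575%, interval 0.187% to 1.34%), counting error only. The fall of S100a8 was thus measured in cells with next to no S100a9 transcript. Defining neutrophil transcripts were scarce too: of 16 neutrophil markers, Ly6g, Elane, Cxcr2 and Stfa2l1 were at 0 in all 6 libraries, and Mpo, Camp, Ngp and Retnlg did not exceed 0.439 FPKM in any. The summed level of the 16 markers was 65.7 to 78.4 FPKM in WT against 66.4 to 82.7 FPKM in PGRN KO, most of it Lcn2, Mmp8 and Csf3r, which were named after their values were seen.

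The promoters of S100a8 and S100a9 are shown because these adjacent genes, whose proteins work as a pair, were measured at very different levels, and that of S100a11 because it was the most abundant member. Each line gives the 250 bases before the transcription start (RefSeq, GRCm38.p6), 5′ to 3′ on the strand of the gene, with matches to the searched motifs in capitals.
S100a8, chr3:90668821-90669070 (plus strand): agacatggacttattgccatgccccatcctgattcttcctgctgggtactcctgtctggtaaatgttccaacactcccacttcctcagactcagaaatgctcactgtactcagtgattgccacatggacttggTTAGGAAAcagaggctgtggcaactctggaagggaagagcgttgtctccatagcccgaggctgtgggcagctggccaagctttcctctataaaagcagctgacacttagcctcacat
S100a9, chr3:90695722-90695971 (minus strand): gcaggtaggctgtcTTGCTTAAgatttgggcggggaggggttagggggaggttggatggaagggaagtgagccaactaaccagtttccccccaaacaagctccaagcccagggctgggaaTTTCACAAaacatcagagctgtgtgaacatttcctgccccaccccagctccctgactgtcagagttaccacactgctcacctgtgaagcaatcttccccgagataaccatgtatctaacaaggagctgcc
S100a11, chr3:93520246-93520495 (plus strand): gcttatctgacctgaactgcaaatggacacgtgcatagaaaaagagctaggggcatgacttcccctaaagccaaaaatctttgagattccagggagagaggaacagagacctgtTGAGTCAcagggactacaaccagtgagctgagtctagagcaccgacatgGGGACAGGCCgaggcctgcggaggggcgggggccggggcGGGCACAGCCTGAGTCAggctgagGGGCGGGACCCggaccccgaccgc
The letters searched, on both strands, were TTNNGNAA for C/EBP factors, TGANTCA for AP-1, GGG and CC with 5 bases of any kind between them for NF-kB, and a repeat of GAAA with 2 bases of any kind between the copies for the interferon response element. They occur in 36.8%, 6.75%, 45.8% and 2.98% of the 32851 promoter windows of this length. The S100a8 window holds 1 C/EBP match, at -117 to -110 from the start, and that of S100a9 holds 2, which begin at -236 and -130. The S100a11 window holds 2 AP-1 matches, which begin at -136 and -38, and 4 NF-kB matches, of which those beginning at -24 and -23 overlap. The deposited gene models of S100a8 and S100a11 begin at 90668978 and 93520488, inside these windows, because the annotations place the start differently. Such matches are letters in a window and show no binding.

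S100a4 and S100a6 lie next to each other, with 6836 bases between them, and both were lower in PGRN KO replicates 4 and 5 than in any WT library. S100a4, also called metastasin or fibroblast-specific protein, binds the heavy chain of nonmuscle myosin IIA and is linked to cell movement. It was at 6.96, 4.75 and 5.41 FPKM in WT against 1.88, 3.08 and 2.68 FPKM in PGRN KO. The groups did not overlap, and replicate 6 lay between the other 2 PGRN KO libraries. The means were 5.71 ± 1.14 and 2.54 ± 0.609 FPKM (SD, n = 3 each), and the log2 fold change was -0.92 ± 0.17 (SE, 95% confidence interval -1.33 to -0.52, limma adjusted p = 0.0117). It was -0.96 without replicate 6 (limma adjusted p = 0.0111) and -0.97 after length correction (limma adjusted p = 0.00893). The counts were low, with 68, 41 and 57 fragments in WT and 19, 34 and 27 in PGRN KO. Of the exon bases of S100a4, 51.7% are also exon of Gm42674 on the same strand, a gene listed at 0 in all 6 libraries. The sources used here do not say how the counting treated fragments on shared bases, so the level of S100a4 is uncertain.

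S100a6, or calcyclin, is a calcium sensor of dividing and stressed cells that binds the calcyclin-binding protein and annexins. It was at 73.0, 82.5 and 77.2 FPKM in WT against 44.3, 47.6 and 74.8 FPKM in PGRN KO. Replicates 4 and 5 lay below all WT libraries, while replicate 6 lay above WT replicate 1, so that the groups overlapped. With all libraries the log2 fold change was -0.51 ± 0.20 (SE, 95% confidence interval -0.97 to -0.05, limma adjusted p = 0.10) and was not called. Without replicate 6 it was -0.74 (limma adjusted p = 0.00110), and after length correction with all libraries it was -0.60 (limma adjusted p = 0.00931). With both it was -0.73 (limma adjusted p = 0.000925). Without replicate 6, 4 S100 genes were called lower, namely S100a4, S100a6, S100a8 and S100a10, beside 25.1% of all tested genes, and S100a1 was called higher, beside 15.9%. After length correction with all libraries 3 were called lower, beside 16.8% of all tested genes, and with both changes 4 were, beside 22.6%.

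S100a1 was the S100 gene called higher in PGRN KO. Its protein is best known from heart and skeletal muscle, where it acts on calcium channels and pumps of the sarcoplasmic reticulum. It was at 28.1, 25.2 and 24.9 FPKM in WT against 38.9, 46.4 and 63.9 FPKM in PGRN KO. Every PGRN KO library lay above every WT library, and replicate 6 was the highest. The means were 26.1 ± 1.74 and 49.7 ± 12.8 FPKM (SD, n = 3 each), and the log2 fold change was 0.88 ± 0.18 (SE, 95% confidence interval 0.46 to 1.30, limma adjusted p = 0.0146). Without replicate 6 it was 0.69 (limma adjusted p = 0.00306), after length correction 0.82 (limma adjusted p = 0.00364) and with both 0.73 (limma adjusted p = 0.00393). The call was lost when WT replicate 1, 2 or 3 was left out, with limma adjusted p of 0.0529, 0.0647 and 0.0617. The log2 fold change of S100a1 was then 0.93, 0.86 and 0.85. In those fits 3.66%, 4.66% and 4.46% of all tested genes were called higher, beside 10.4% with all libraries. The values rested on 326, 259 and 312 fragments in WT and 468, 610 and 766 in PGRN KO.

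S100a13, the neighbour of S100a1, takes part in the release of FGF1 and interleukin-1α from cells without a signal peptide. It was at 15.5, 14.7 and 16.9 FPKM in WT against 15.7, 14.04 and 33.5 FPKM in PGRN KO. Replicates 4 and 5 lay within or just below the WT range, and replicate 6 stood far above it. The log2 fold change was 0.30 ± 0.30 (SE, 95% confidence interval -0.40 to 1.00, limma adjusted p = 0.490) with all libraries and -0.08 without replicate 6 (limma adjusted p = 0.493). Of the cargo of this route, Il1a was at 3958 ± 712 FPKM in WT against 3540 ± 122 FPKM in PGRN KO (SD, n = 3 each, limma adjusted p = 0.533), and Fgf1 did not reach 1 FPKM on average. Of 4 genes of such release, 2 were tested and 0 were called by limma or voom, beside 24.2% and 22.7% of all tested genes. At an unadjusted p under 0.05, for which no share of all tested genes is given, 0 passed as well.

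S100a10 and S100a11 form the second group on the chromosome, and both bind annexins. S100a10, or p11, joins annexin A2 in a complex at the cell surface that binds plasminogen and its activator. It was at 69.9, 71.7 and 69.0 FPKM in WT against 58.9, 62.6 and 102 FPKM in PGRN KO. The WT libraries lay close together, with replicates 4 and 5 below them and replicate 6 above them. The log2 fold change was 0.04 ± 0.20 (SE, 95% confidence interval -0.44 to 0.51, limma adjusted p = 0.903) with all libraries and changed sign without replicate 6, to -0.21 (95% confidence interval -0.33 to -0.08, limma adjusted p = 0.0217). After length correction it was -0.05 with all libraries (limma adjusted p = 0.775) and -0.19 without replicate 6 (limma adjusted p = 0.0301).

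S100a11, or calgizzarin, binds annexin A1 and takes part in membrane repair. It was at 231, 242 and 224 FPKM in WT against 225, 211 and 283 FPKM in PGRN KO. The groups overlapped, and replicate 6 was again the highest library. The log2 fold change was 0.03 ± 0.13 (SE, 95% confidence interval -0.27 to 0.34, limma adjusted p = 0.867) with all libraries and -0.09 without replicate 6 (limma adjusted p = 0.254). Of the 31-base words of the S100a11 exons, 48.9% also occur in the exons of other genes. Among the processed pseudogenes that share them, Gm12854 was at 5.46 to 12.4 FPKM and Gm7665 at 7.97 to 19.1 FPKM over the 6 libraries, so fragments of S100a11 may have been split between loci.

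**Figure D2:**
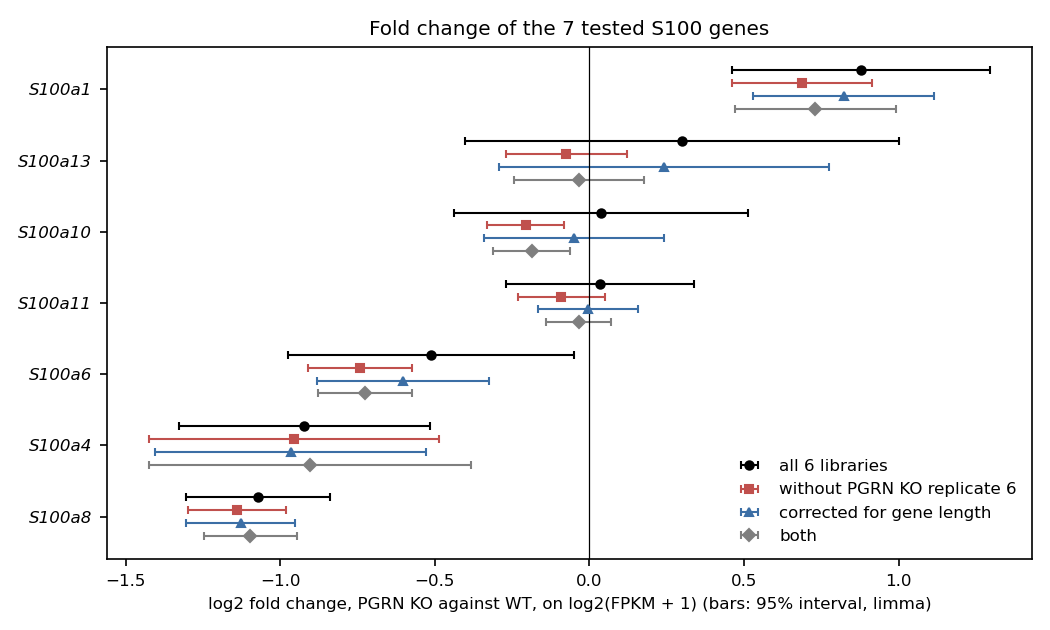
Log2 fold change of the 7 tested S100 genes, PGRN KO against WT, on the log2(FPKM + 1) scale (horizontal axis), with 95% confidence intervals from limma (bars), for all libraries, without PGRN KO replicate 6, after length correction, and with both. S100a8 and S100a4 stay below 0 and S100a1 above 0 in each fit, whereas S100a6 moves from -0.51 to -0.74 and S100a10 from 0.04 to -0.21 without replicate 6.

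The S100 genes differed in how far replicate 6 departed from replicates 4 and 5. On the log2 scale the difference from their mean was 1.12 for S100a13, 0.73 for S100a10, 0.69 for S100a6, 0.58 for S100a1, 0.37 for S100a11, 0.20 for S100a8 and 0.10 for S100a4. Genes of 511 to 1367 bases ranged from -0.63 at the 5th percentile to 0.93 at the 95th, with a median of 0.44. S100a13 lay above that range, and the other 6 lay within it. The members that passed the test in the lower direction, S100a4 and S100a8, were the 2 with the smallest departure. The departure and the test use the same PGRN KO values, so the 2 are not independent. Without replicate 6 the log2 fold change of S100a6 was -0.74 instead of -0.51, and that of S100a10 was -0.21 instead of 0.04. That of S100a1 was 0.69 instead of 0.88. Why the members differed in this was not tested.

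**Figure D3:**
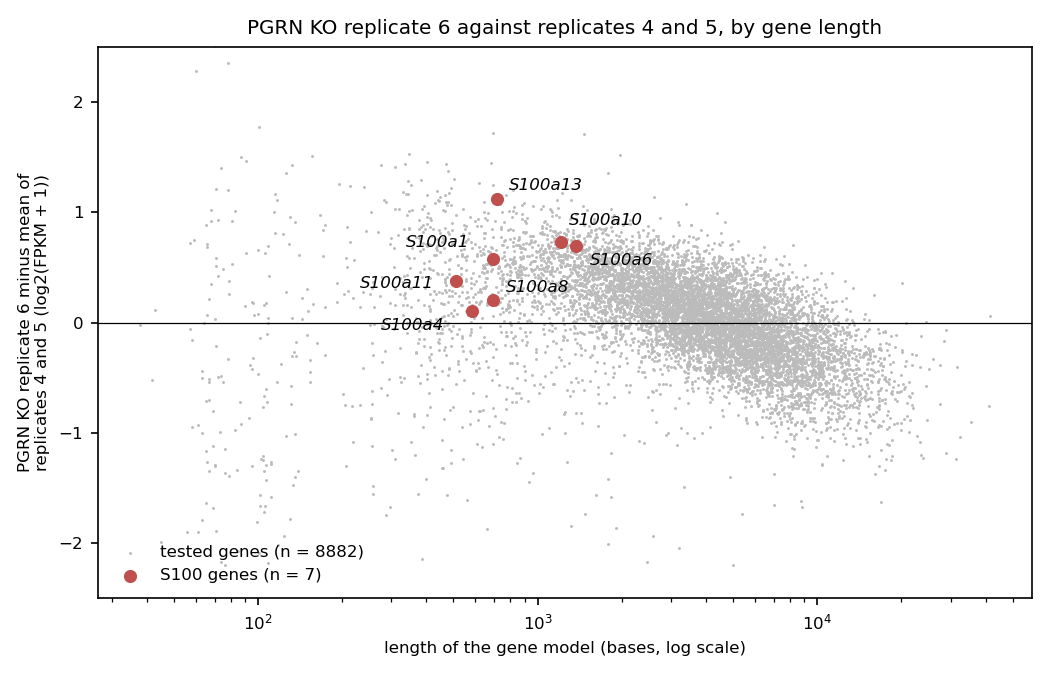
Difference between PGRN KO replicate 6 and the mean of replicates 4 and 5 on the log2(FPKM + 1) scale (vertical axis) against gene model length in bases (horizontal log axis) for the 8882 tested genes (grey points, 3 outside the plotted range) and the 7 tested S100 genes (named points). Genes of 511 to 1367 bases have a median of 0.44, and S100a13, at 1.12, lies above the 95th percentile of genes of its length range.

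Ratios between S100 genes within a library do not depend on library size. The ratio of S100a8 to S100a1 was 1.74, 2.09 and 1.94 in WT and 0.545, 0.497 and 0.401 in PGRN KO. The group means were 1.92 ± 0.177 and 0.481 ± 0.0734 (SD, n = 3 each), with no overlap. The ratio of S100a6 to S100a10, genes of similar model length, was 1.04, 1.15 and 1.12 in WT and 0.751, 0.760 and 0.736 in PGRN KO, where replicate 6 lay beside replicates 4 and 5. The ratio of S100a13 to S100a1 was 0.554, 0.581 and 0.678 in WT and 0.402, 0.302 and 0.525 in PGRN KO. These 3 ratios reached the smallest p that 3 against 3 libraries allow in a two-sided exact permutation test, 0.1, and 0.167 after Benjamini-Hochberg adjustment over the 5 pairs compared, so none can pass 0.05 in this design. The ratio of S100a10 to its partner Anxa2 was 0.370, 0.357 and 0.369 in WT and 0.303, 0.336 and 0.386 in PGRN KO, and the groups overlapped (exact permutation p = 0.4). That of S100a4 to S100a6 overlapped as well, at 0.0953, 0.0575 and 0.0701 in WT and 0.0424, 0.0647 and 0.0357 in PGRN KO (exact permutation p = 0.2). The pairs were chosen after the values had been seen.

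**Figure D4:**
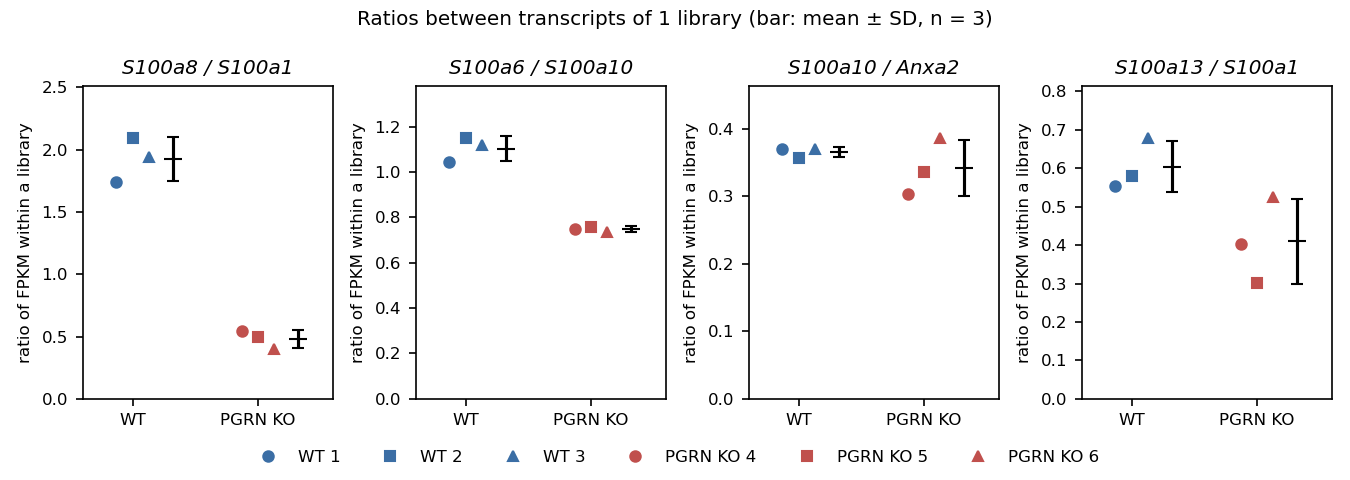
Ratio of FPKM within a library for 4 of the 5 pairs (vertical axis from 0, a scale of its own in each panel) in the WT and PGRN KO libraries (points, 1 shape per library), with the mean ± SD of each group (bars, n = 3). The ratio of S100a6 to S100a10 sits at 1.04 to 1.15 in WT and 0.736 to 0.760 in PGRN KO, while that of S100a10 to Anxa2 overlaps between the groups.

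Over the 6 libraries, S100a4 and S100a8 varied together (Pearson r = 0.92 of log2 values), and S100a10, S100a11 and S100a13 formed another set (r of 0.94, 0.91 and 0.90 between them), while S100a1 ran against S100a8 (r = -0.83). These correlations are descriptions over 6 libraries that share the genotype difference and the departure of replicate 6. The tested genes most like each member over the same libraries also follow from those differences. For S100a8 they were Nolc1 and Dhx38 (r = 0.999 each) and Pcnp (0.998), for S100a4 Wdtc1 (0.999), Id1 (0.991) and Unc119b (0.989), and for S100a6 Arf1 (0.999), Eif3b (0.995) and Vapb (0.994). For S100a1 they were Snd1 (0.996), Mad2l2 and Cdipt (0.992 each), and for S100a13 Atp5j (0.998), Cdc37 and Arf5 (0.996 each). For S100a10 those reported were Bri3 and Higd1a (0.997 each), and for S100a11 Tmbim6 and Stx6 (0.994 each) and Mul1 (0.992).

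The other S100 genes were near 0. Of 11 further symbols, 10 were in the table, and S100a2, S100a3, S100a5, S100g and S100z were at 0 in all 6 libraries. S100a7a reached 0.196 FPKM in WT replicate 2 and 0.0419 FPKM in PGRN KO replicate 4. S100a14 reached 0.0612 FPKM in PGRN KO replicate 5, and S100b reached 0.0456 FPKM in WT replicate 2 and 0.0356 FPKM in PGRN KO replicate 5. S100a16 was at 0.0343 FPKM in WT replicate 3, and among PGRN KO libraries it reached 0.143 FPKM in replicate 4 and 0.179 FPKM in replicate 6. The 8 members thus held nearly all S100 transcript of these cells. S100pbp, which is no S100 protein but binds S100P, was at 2.64 ± 0.254 FPKM in WT against 2.19 ± 0.375 FPKM in PGRN KO (SD, n = 3 each, limma adjusted p = 0.266).

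Receptors proposed for extracellular S100 proteins were called lower in PGRN KO or were not called. Of 8, 7 were tested, 3 were called lower, beside 13.8% of all tested genes, and 0 higher, with a median log2 fold change of -0.39. Voom called 2 lower, beside 8.51%, and 0 higher, and without PGRN KO replicate 6 limma called 5 lower, beside 25.1%, and 0 higher. At an unadjusted p under 0.05, 4 were lower and 0 higher. No share of all tested genes is given at that threshold, so these 2 counts cannot be read as an excess. Cd33, a sialic acid-binding inhibitory receptor, fell from 13.98 ± 0.751 to 8.32 ± 1.08 FPKM (SD, n = 3 each, log2 fold change -0.69 ± 0.11 SE, limma adjusted p = 0.00731). Alcam, a cell adhesion molecule related to RAGE, fell from 81.2 ± 3.28 to 53.5 ± 6.47 FPKM (limma adjusted p = 0.0117). Ly96, the MD-2 subunit of the TLR4 complex, fell from 18.5 ± 1.58 to 12.8 ± 1.88 FPKM (limma adjusted p = 0.0284). Tlr4 itself was at 9.99 ± 0.288 FPKM in WT against 8.49 ± 2.47 FPKM in PGRN KO (limma adjusted p = 0.374), and Bsg, or CD147, was at 477 ± 15.2 and 503 ± 90.2 FPKM (limma adjusted p = 0.767). Ager, which encodes RAGE, did not exceed 0.189 FPKM in any library. The call of Alcam was lost on the TPM scale and without WT replicate 1 or 2 (limma adjusted p = 0.0663 and 0.0573), and that of Ly96 with voom, with no filter and without any single library but PGRN KO replicate 6 (limma adjusted p up to 0.113).

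Annexins and AHNAK, a large scaffold that binds S100a10, moved in both directions, with a median of 0.14. Of 9 tested genes, 1 was higher, beside 10.4% of all tested genes, and 1 lower, beside 13.8%. Voom on recovered fragments called 4 higher, beside 14.2%, and 1 lower, beside 8.51%. Anxa6 rose from 14.7 ± 0.289 to 24.6 ± 4.69 FPKM (log2 fold change 0.68 ± 0.14 SE, limma adjusted p = 0.0149), and Anxa5 fell from 698 ± 41.1 to 501 ± 67.4 FPKM (-0.48 ± 0.13 SE, limma adjusted p = 0.0339). The call of Anxa6 was lost without WT replicate 1, 2 or 3 (limma adjusted p up to 0.0672) and that of Anxa5 with no filter and without any library but PGRN KO replicate 6 (limma adjusted p up to 0.127). Anxa2, the partner of S100a10, was at 192 ± 7.72 FPKM in WT against 215 ± 42.5 FPKM in PGRN KO (limma adjusted p = 0.507). Anxa1, the partner of S100a11, was at 75.2 ± 8.84 and 93.8 ± 12.95 FPKM (limma adjusted p = 0.135). Ahnak was at 47.4, 43.7 and 39.0 FPKM in WT against 37.7, 37.2 and 15.7 FPKM in PGRN KO, with replicate 6 far below the rest (limma adjusted p = 0.202). Of 8 genes of the plasminogen system that S100a10 serves, 6 were tested, with a median of -0.11, and Plg was at 0 in all libraries. Limma and voom called 0 of them, beside 24.2% and 22.7% of all tested genes. At an unadjusted p under 0.05, for which no share of all tested genes is given, 1 was lower. Without PGRN KO replicate 6, limma called 3 lower, beside 25.1%.

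Of 10 intracellular targets, 8 were tested and the median was -0.04. Of these, 1 was higher, beside 10.4% of all tested genes, and 2 were lower, beside 13.8%. Without PGRN KO replicate 6, 3 were called higher, beside 15.9%, and 4 lower, beside 25.1%. Mdm2, the ubiquitin ligase of p53, fell from 178 ± 12.8 to 83.4 ± 5.24 FPKM (log2 fold change -1.08 ± 0.10 SE, limma adjusted p = 0.00142). Trp53, whose product p53 binds S100a4, fell from 15.3 ± 0.446 to 10.5 ± 0.763 FPKM (-0.51 ± 0.09 SE, limma adjusted p = 0.00893), and lost its call without WT replicate 1 (limma adjusted p = 0.05004). Cacybp, the calcyclin-binding protein, rose from 8.69 ± 0.437 to 13.96 ± 3.06 FPKM (0.61 ± 0.15 SE, limma adjusted p = 0.0290), opposite in sign to its partner S100a6. This call was lost with no filter and without WT replicate 1, 2 or 3 or PGRN KO replicate 4 (limma adjusted p up to 0.108). Myh9, the myosin heavy chain that S100a4 binds, was at 88.0 ± 1.48 and 91.6 ± 9.74 FPKM (limma adjusted p = 0.739), and it was called higher without PGRN KO replicate 6 (limma adjusted p = 0.0479).

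Among 9 myeloid transcription factors linked to S100a8 and S100a9, 8 were tested and 2 were lower, beside 13.8% of all tested genes. With limma or voom 0 were higher, beside 10.4% and 14.2% of all tested genes, and the median was -0.22. At an unadjusted p under 0.05, for which no such share is given, 0 were higher too. Cebpa, which drives early myeloid differentiation, was at 9.14, 7.95 and 11.7 FPKM in WT against 3.83, 3.59 and 4.59 FPKM in PGRN KO (fitted log2 fold change -1.07 ± 0.15 SE, limma adjusted p = 0.00480). Cebpd, an acute-phase factor, was at 4.48, 4.80 and 4.93 FPKM in WT against 1.85, 1.79 and 2.12 FPKM in PGRN KO (-0.98 ± 0.09 SE, limma adjusted p = 0.00142). The groups did not overlap in either gene, nor in Spi1, Stat3 and Klf4 of the same list, beside 48.8% of all tested genes. Cebpb was far more abundant, at 1266 ± 61.3 FPKM in WT against 1110 ± 274 FPKM in PGRN KO (limma adjusted p = 0.400), and Spi1, which encodes PU.1, was at 75.03 ± 5.90 and 55.0 ± 12.8 FPKM (limma adjusted p = 0.0834). Without PGRN KO replicate 6 both were called lower (limma adjusted p = 0.00420 and 0.00253).

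Of 8 genes of zinc and other metals, the setting in which calprotectin acts, 7 were tested and 2 were lower, beside 13.8% of all tested genes. With limma or voom 0 were higher, beside 10.4% and 14.2% of all tested genes, and the median was -0.29. At an unadjusted p under 0.05, for which no such share is given, 0 were higher too. Without PGRN KO replicate 6, 4 were called lower, beside 25.1%, and 1 higher, beside 15.9%. The higher one was the zinc transporter gene Slc30a4 (limma adjusted p = 0.0357), named after its values were seen. Slc39a14, a zinc and iron importer, fell from 22.5 ± 0.0909 to 11.7 ± 1.86 FPKM (log2 fold change -0.89 ± 0.12 SE, limma adjusted p = 0.00447). Mt2, a metallothionein, fell from 51.9 ± 2.48 to 39.5 ± 3.82 FPKM (-0.39 ± 0.10 SE, limma adjusted p = 0.0322), a call lost on the TPM scale, with summed fragments as library size, with voom, with no filter and without any library but PGRN KO replicate 6 (limma adjusted p up to 0.140).

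**Figure D5:**
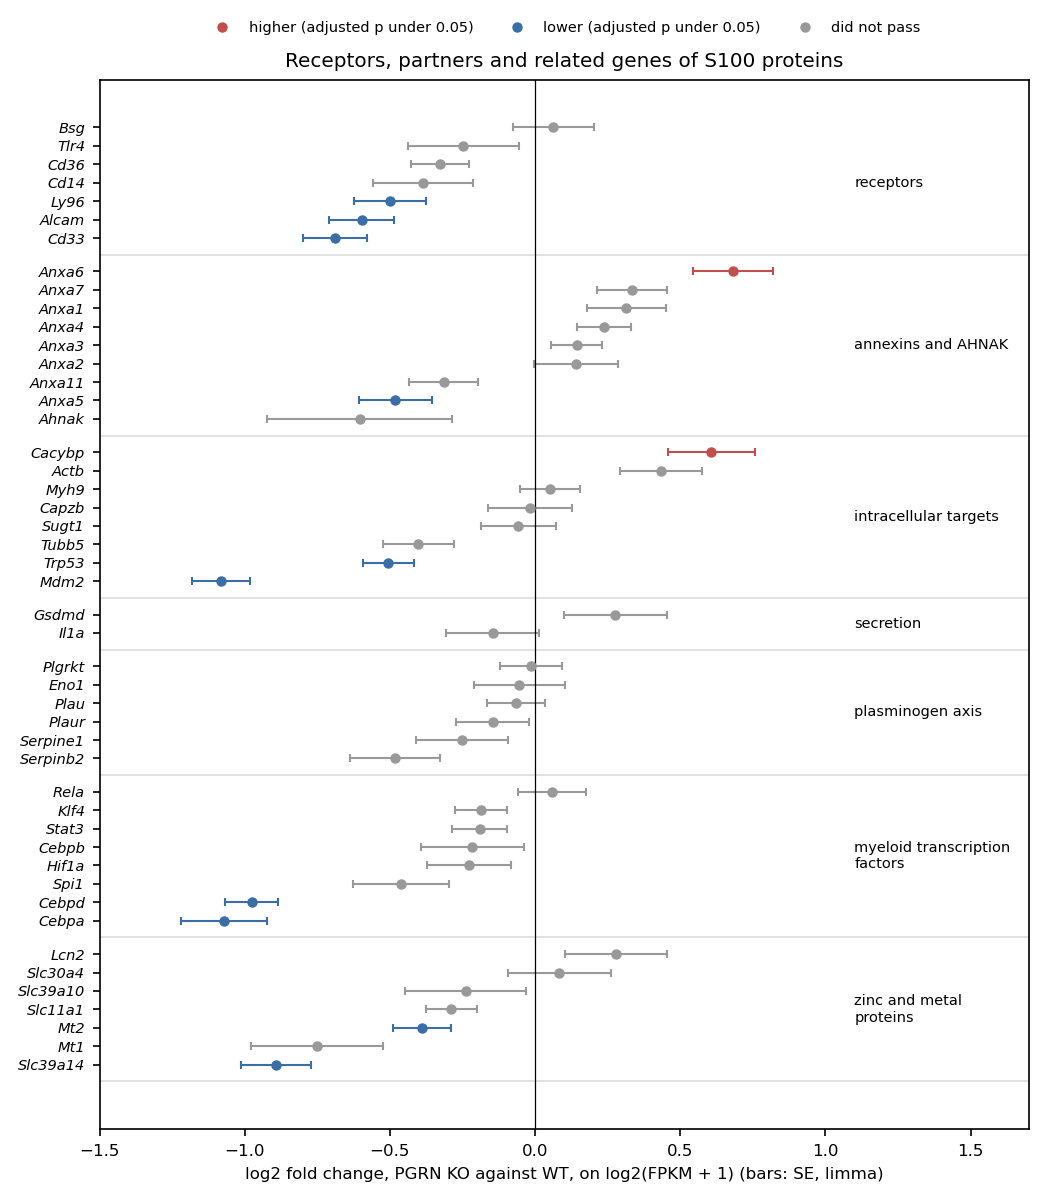
Log2 fold change, PGRN KO against WT, on the log2(FPKM + 1) scale (horizontal axis; points, with the SE from limma as bars) of the tested genes of 7 lists, coloured by whether they passed an adjusted p of 0.05. Mdm2, Cebpa and Cebpd lie near -1, and Anxa6 and Cacybp are the 2 genes that passed in the higher direction.

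Markers of other cells that produce S100 proteins also moved. Of 8 monocyte markers, 6 were tested, 3 were lower, beside 13.8% of all tested genes, and 2 higher, beside 10.4%. The summed level of the 8 was 1556 to 1682 FPKM in WT against 2369 to 2680 FPKM in PGRN KO, most of it Chil3. Ly6c2, the marker of young inflammatory monocytes, was at 12.7, 11.6 and 11.7 FPKM in WT against 3.01, 3.47 and 3.70 FPKM in PGRN KO (fitted log2 fold change -1.57 ± 0.10 SE, limma adjusted p = 0.00119). Ccr2, the chemokine receptor of the same cells, stayed between 0.258 and 0.401 FPKM in all libraries. Besides Ly6c2 the called monocyte markers were Chil3 and Plac8, higher, and Fn1 and F13a1, lower, named after their values were seen. Minimum fold aside, the calls of Ly6c2 and Chil3 held in all 18 alternatives, that of Fn1 in 10 of 18 and that of F13a1 in 9 of 17. The calls of Fn1 and F13a1 were each lost on the TPM scale and with any single WT library left out (limma adjusted p up to 0.127 and 0.0961). The call of Plac8 was lost without WT replicate 3 (limma adjusted p = 0.0530), and voom called 2 markers lower, beside 8.51% of all tested genes. Of the neutrophil markers 4 were tested and 1 was called lower, beside 13.8% of all tested genes. This was Mmp9, a gelatinase, which fell from 1.79 to 0.320 FPKM (limma adjusted p = 0.00211). Mmp9 passed the limit for testing only through WT, so its direction was largely set by the filter. Below that limit, Padi4 rose from 0.288 to 0.994 FPKM and Il1r2 fell from 1.13 to 0.563 FPKM, each without overlap. These genes were likewise named after their values were seen. Of 8 macrophage markers, all tested, 1 was higher and 1 lower (0 lower with voom), beside 10.4% and 13.8% of all tested genes. Mertk rose from 1.41 to 3.24 FPKM, and Csf1r fell from 32.5 to 24.7 FPKM, a call that held in 11 of 18 alternatives. The 8 summed to 7099 to 7433 FPKM in WT against 7244 to 9731 FPKM in PGRN KO, most of it Lyz2. Lyz2 was at 5990, 5873 and 8135 FPKM in PGRN KO, so the top of that range came from replicate 6. These genes too were named after their values were seen. Of 8 markers of large peritoneal macrophages, 4 were tested and 1, Icam2, was higher, beside 10.4% of all tested genes. Without PGRN KO replicate 6, Icam2 and Cd93 were called higher, beside 15.9%. The 8 summed to 34.1 to 34.7 FPKM in WT against 33.5 to 47.0 FPKM in PGRN KO.

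Transcripts of mast cells, lymphocytes and stromal cells were low, and only 5 of these 31 markers were tested. The summed level of 6 mast cell markers was 2.29 to 3.19 FPKM in WT against 9.72 to 13.99 FPKM in PGRN KO, most of it Tpsb2 and Cma1. Kit, not tested, went the other way, from 0.345 to 0.210 FPKM with overlap. That of 6 B cell markers was 4.79 to 6.08 and 19.0 to 24.1 FPKM. Tested were 2 mast cell and 3 B cell markers, all called higher, beside 10.4% of all tested genes. Cma1, Cd79a and Cd79b averaged 0.789, 0.960 and 0.633 FPKM in WT. They passed the limit for testing only through PGRN KO, so their direction was largely set by the filter. The call of Cd79b was lost in 6 of 15 alternatives. These genes were named after their values were seen. The 6 T and NK cell markers summed to 1.049 to 1.44 and 2.18 to 2.63 FPKM, and 6 fibroblast markers to 0.864 to 0.901 and 1.86 to 3.45 FPKM, with none tested. Mesothelial markers, 7 in number, summed to 0.409 to 0.517 and 0.119 to 0.359 FPKM, with Lrrn4 at 0 in all libraries. The part of these cells in the changes of S100a1, S100a4 and S100a8 was not tested.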

How the data were processed

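Polyadenylated RNA of 3 WT and 3 PGRN KO libraries was sequenced as paired reads. The authors aligned reads with HISAT2 2.0.5 to GRCm38 (mm10) and counted fragments with featureCounts 1.5.0-p3, per the submitters' processing notes. They deposited FPKM per gene. Whether strand was used is not stated in the sources used here. The authors' differential test was DESeq2, version 1.20.0 per the same notes. The methods instead name HTSeq and other versions of HISAT and DESeq2, so the tools and versions are not settled. For 100% of values above 0, the product of FPKM and gene length was a whole number of steps, with 1 step size in each library (tolerance 0.001 of a step), which gave the counted fragments. The library size the authors divided by was 0.925 to 1.09 times their sum.

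The 2 genotypes were tested with limma 3.58.1 (R 4.3.3) on log2(FPKM + 1) with a mean-variance trend, no covariates, a minimum mean of 1 FPKM, two-sided tests and Benjamini-Hochberg adjustment over all 8882 tested genes. The test was also run on simulated counts, with the same spread setting for all genes and no library that departed by gene length. That simulation therefore does not cover the departure of PGRN KO replicate 6. The length correction was a loess fit of each library on log gene length (span 0.5). Gene models, exon overlap and shared 31-base words came from GENCODE on GRCm38, where 99.93% of identifiers were found and 98.26% had the same coordinates. RefSeq promoter windows matched 7 of the 8 members. Named genes were Grn, the S100 genes, called genes of the lists, 12 partner genes and 10 cell type markers whatever their result, and the 3 genes most correlated with each tested member, of which 1 is not reported here. The members and lists were chosen with earlier results of these data known. Alternatives were pseudocounts of 0.1 and 0.01, no filter, a mean FPKM of at least 5, a TPM scale, quantile normalization and summed fragments as library size. Others were no trend, sample quality weights, length correction with and without PGRN KO replicate 6, voom on recovered fragments, and each library left out. A log2 fold change of at least 1 was a further alternative, which the counts of alternatives for single genes leave out. Intervals on shares of fragments express counting error alone, as PCR copies cannot be told from separate molecules.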

Additional observations from a re-analysis of the deposited data

How the results depend on the processing

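The counts of alternatives for single genes leave out the minimum fold, which is given below. S100a8 kept its call in all 18 of these (limma adjusted p from 2.42e-05 to 0.0151), S100a4 in all 17 in which it was tested (0.00146 to 0.0497), and S100a1 in 15 of 18 (0.00131 to 0.0647). Leaving out 1 library at a time gave 0 to 1 S100 genes called higher, with 0 without WT replicate 1, 2 or 3, and 2 to 4 called lower, with 4 without PGRN KO replicate 6. Their median log2 fold change then ran from -0.21 to 0.12, with the lowest value without PGRN KO replicate 6. A minimum fold of 1 on the log2 scale left 0 higher and 1 lower, beside 2.62% of all tested genes in either direction, so that S100a4 and S100a1 lost their calls. This cut was set on log2(FPKM + 1), where S100a4 was at -0.92. With pseudocounts of 0.1 and 0.01 the log2 fold change of S100a4 was -1.14 and -1.17. A mean FPKM of at least 5 left 1 lower, since S100a4 was not tested there. Length correction without PGRN KO replicate 6 gave 4 lower and a median of -0.19, and sample quality weights, which gave that library a weight of 0.0899, also gave a median of -0.19. The uncalled S100a10, S100a11 and S100a13 changed sign. With quality weights they were at -0.19, -0.071 and -0.023, and with length correction without PGRN KO replicate 6 at -0.19, -0.035 and -0.033. Length correction alone gave -0.051 for S100a10 and -0.0036 for S100a11. With 1 library left out S100a10 ran from -0.21 to 0.18, S100a11 from -0.091 to 0.12 and S100a13 from -0.075 to 0.52. S100a6 passed the threshold in 5 of 18 alternatives, including quantile normalization (-0.49, limma adjusted p = 0.0485). The cause was not tested.

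No paired analysis was possible because no replicate number occurs in both groups. Depth limits S100a9, which had 1 fragment in WT and 5 in PGRN KO, and S100a4, which had 19 to 68 fragments per library.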
